A study of Homo sapiens with 8 samples.

Results

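The ETS family genes followed here were ETS1, ETS2, FLI1, ETV1, ETV4, ETV5, ELK3, EHF, ELF3 and ELF5. Their surroundings were read from ATAC-seq, in which a transposase inserts sequencing adapters into accessible DNA. Accessible regions were chosen by position alone: the 4 deposited peak lists were merged wherever peaks shared at least 1 bp, and a merged region was assigned to a gene when it overlapped the gene body or the 50 kb on either side. This gave 170 regions of 126658 in the whole data set, among which 1 region lay within the windows of both EHF and ELF5. The cells were MCF10A, an immortalised but not tumour-forming cell line from human breast epithelium, of wild-type genotype and kept in medium with horse serum, EGF, hydrocortisone, cholera toxin and insulin. They received 5 ng/ml of recombinant human TGFβ1 for 6, 24 or 72 h, or the solvent, BSA in PBS, which the labels place at time 0. The study's figure legend gives 72 h of solvent for the control, with all samples harvested at the same time after seeding. Each of the 4 conditions was represented by 2 biological replicates, 8 libraries in all, but the authors called peaks on both replicates of a condition together, so each condition had 1 peak list, no spread between replicates was available and no difference was tested. All values below are descriptions of these 4 pooled lists in 1 cell line.

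ETS factors are transcription factors that share a DNA-binding domain, the ETS domain, which recognises sites with a GGA core. Members differ in tissue: EHF, ELF3 and ELF5 form the epithelium-specific group and act in epithelial differentiation, whereas ETS1, ETS2 and FLI1 are best known from mesenchymal, endothelial and blood cells, and ETS1 from invasive carcinoma cells. ETV1, ETV4 and ETV5 make up the PEA3 group, which responds to growth factor signalling through ERK, and ELK3 is a ternary complex factor that binds DNA together with serum response factor and represses transcription until it is phosphorylated.

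The strength of a peak was given by the peak caller, Genrich, as its AUC, an area under a curve of significance along the region. A peak needed an AUC of 200 to be listed, so a region without a peak had a signal below that limit or none. The lists held 86209, 107656, 118433 and 116720 peaks in solvent and at 6, 24 and 72 h. The AUC increases with read depth and peak width, the lists hold no read totals, and the depth is therefore unknown. For this reason each TGFβ1 list was scaled by its median log2 ratio to solvent over 32923, 32594 and 32098 shared regions within 3 kb of a transcription start site (TSS), which were 0.44, 0.38 and 0.25 at 6, 24 and 72 h. A ratio below is the log2 of a region's AUC with TGFβ1 over its AUC in solvent after this scaling. AUC values are given as deposited. Peaks lay at the promoters of 7 of 7 mammary epithelial marker genes in every list and at those of 0 of 4 blood, 0 of 4 endothelial and 0 of 2 liver genes in any list.

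The regions that differed most are shown first as sequence, so that the motifs named below can be located. Each sequence is the GRCh38 plus strand, 100 bp to each side of the summit of the strongest peak, with matches to the searched motifs in capitals. Regions are numbered within each gene from the lowest to the highest coordinate. Shown are the region of largest ratio at 72 h (ETS1 region 6, chr11:128467606-128467806), that of lowest ratio (EHF region 6, chr11:34640336-34640536), the strongest region gained in all TGFβ1 lists (ELK3 region 1, chr12:96177167-96177367) and the strongest region lost at 72 h (ETS1 region 9, chr11:128484282-128484482).
ETS1 region 6: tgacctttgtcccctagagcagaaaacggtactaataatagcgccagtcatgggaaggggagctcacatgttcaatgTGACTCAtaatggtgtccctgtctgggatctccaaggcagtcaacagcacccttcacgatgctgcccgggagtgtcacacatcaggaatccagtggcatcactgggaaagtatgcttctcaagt
EHF region 6: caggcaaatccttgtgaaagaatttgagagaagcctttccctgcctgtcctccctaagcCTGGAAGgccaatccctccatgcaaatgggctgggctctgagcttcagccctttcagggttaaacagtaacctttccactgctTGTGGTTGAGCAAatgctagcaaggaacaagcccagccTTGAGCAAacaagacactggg
ELK3 region 1: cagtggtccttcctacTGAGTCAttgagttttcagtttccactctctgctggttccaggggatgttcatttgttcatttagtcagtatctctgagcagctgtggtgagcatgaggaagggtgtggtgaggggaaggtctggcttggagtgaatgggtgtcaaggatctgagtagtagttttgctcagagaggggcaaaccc
ETS1 region 9: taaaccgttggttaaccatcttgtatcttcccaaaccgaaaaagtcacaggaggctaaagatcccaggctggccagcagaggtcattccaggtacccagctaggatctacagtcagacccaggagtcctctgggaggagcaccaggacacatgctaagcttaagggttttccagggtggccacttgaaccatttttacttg
The capitals in ETS1 region 6 mark TGACTCA and those in ELK3 region 1 mark TGAGTCA, each a match to the AP-1 motif. In EHF region 6 they mark the ETS motif CTGGAAG, a RUNX motif TGTGGTT that overlaps the first of 2 C/EBP motifs, and both C/EBP motifs, each TTGAGCAA. No searched motif matched in ETS1 region 9. A further 3 windows were chosen after their values had been seen: another EHF region that was higher with TGFβ1 (EHF region 4, chr11:34609903-34610103), the region at the upstream start site of ETV4 (ETV4 region 10, chr17:43579591-43579791) and an intergenic region next to ELF3 with a ratio of -0.57 at 72 h (ELF3 region 11, chr1:202018779-202018979).
EHF region 4: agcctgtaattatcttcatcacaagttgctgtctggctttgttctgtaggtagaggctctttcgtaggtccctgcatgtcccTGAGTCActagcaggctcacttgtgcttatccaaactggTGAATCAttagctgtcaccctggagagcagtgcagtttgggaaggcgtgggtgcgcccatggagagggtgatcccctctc
ETV4 region 10: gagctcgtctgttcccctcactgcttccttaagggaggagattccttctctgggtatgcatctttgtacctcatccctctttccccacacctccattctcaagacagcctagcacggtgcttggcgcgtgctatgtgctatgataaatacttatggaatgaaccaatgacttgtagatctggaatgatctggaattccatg
ELF3 region 11: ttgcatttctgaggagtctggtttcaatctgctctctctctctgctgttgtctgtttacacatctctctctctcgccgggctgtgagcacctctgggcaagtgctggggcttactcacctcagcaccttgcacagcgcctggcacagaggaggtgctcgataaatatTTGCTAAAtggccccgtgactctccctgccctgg
EHF region 4 held the AP-1 matches TGAGTCA and TGAATCA, ELF3 region 11 held the C/EBP match TTGCTAAA, and the window of ETV4 region 10 held none.

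Most regions around these genes were accessible with solvent and at each time point of TGFβ1. A peak was present in every list in 114 of the 170 regions (67.1%, against 62.6% of all merged regions), and 26 regions (15.3%, against 14.3%) had a peak in the 3 TGFβ1 lists and none in solvent. A region was called gained when it had a peak at a time point and none in solvent, and lost in the reverse case. Gained were 33 of the 149 regions with a peak at 6 h (22.1%, 95% Wilson interval 16.2 to 29.5, which covers counting error only), against 23.0% of all regions. At 24 h 41 of 157 were gained (26.1%, interval 19.9 to 33.5, against 30.2%), and at 72 h 40 of 156 (25.6%, interval 19.4 to 33.0, against 30.1%). The regions around ETS family genes were thus gained at a share near or a little under that of the genome. Gains mostly recurred: of the 33 regions gained at 6 h, 28 had a peak at 24 h and 27 at 72 h, and 33 of the 41 gained at 24 h had a peak at 72 h. Regions with a peak at 6 h alone were 2.35% of the 170, against 2.03% of all merged regions. Those with a peak at 24 h alone were 3.53%, against 3.42%, so single-time gains were near the share of all regions. The median AUC of the gained regions was 317, 332 and 402 at the 3 times, beside 304, 348 and 361 over all gained regions. These medians lay not far above the limit for listing, and the highest AUC around the 10 genes was 642, 1443 and 1555. The number of gains depended on the length of the lists, around these genes and over all regions. With every list reduced to the same number of peaks, 12, 12 and 19 regions were gained (9.84%, 9.92% and 15.2%). Over all regions 9.19%, 13.2% and 15.6% were gained. Lost were 8, 9 and 12 regions, beside 5.96%, 10.8% and 13.5% of all regions.

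Losses were few. Of the 118 regions with a peak in solvent, 2 had none at each time point (1.69%), against 0.714%, 1.86% and 3.44% of all regions at 6, 24 and 72 h. An intronic ETS2 region (region 20, AUC 222 in solvent) was without a peak at every time point, FLI1 region 4 was without a peak only at 6 h, FLI1 region 16 only at 24 h, and ETS1 region 9 only at 72 h. All of these had a solvent AUC between 203 and 244, close to the limit for listing.

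Regions with a peak in both lists were called higher or lower at a 2-fold difference after scaling. Higher were 4 of 116 shared regions at 6 h (3.45%, against 3.45% of all shared regions), 7 of 116 at 24 h (6.03%, against 8.37%) and 9 of 116 at 72 h (7.76%, against 10.5%). Lower were 0 at 6 h (all regions 0.215%), 2 at 24 h (1.72%, against 0.935%) and 1 at 72 h (0.862%, against 1.23%). The median ratio over the shared regions of the 10 genes was 0.05, 0.06 and 0.18 at the 3 times, beside 0.06, 0.12 and 0.15 over all shared regions. The ETS family regions as a group thus lay near the values of all regions, while single regions lay far from them.

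**Figure D1:**
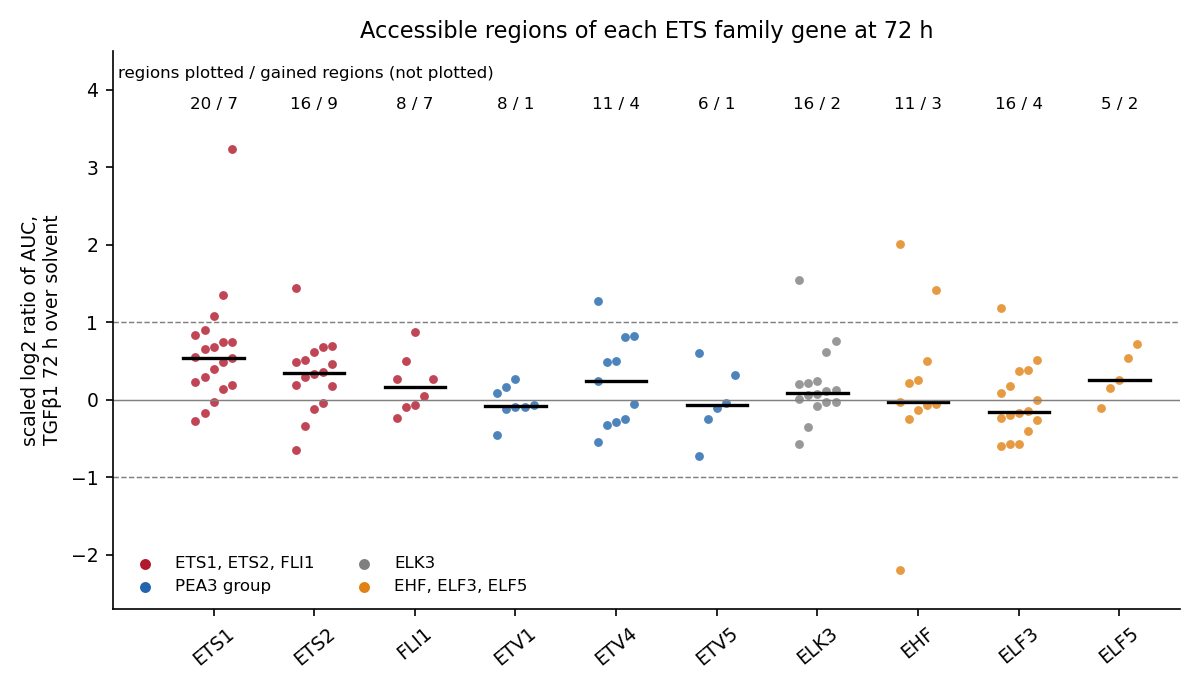
Scaled log2 ratio of AUC at 72 h (vertical axis) of each region with a peak in both lists, by gene; the black bars are medians and the dashed lines mark a 2-fold difference. The single point at 3.23 is ETS1 region 6 and the single point at -2.20 is EHF region 6, and most points of ETS1 and ETS2 lie above 0.

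Among the 72 regions of ETS1, ETS2 and FLI1, the median ratio was 0.08, 0.27 and 0.38 at 6, 24 and 72 h, and 34 of 44 shared regions lay above 0 at 72 h (77.3%, against 63.9% of all shared regions). The 43 regions of the epithelium-specific genes EHF, ELF3 and ELF5 had medians of -0.03, -0.06 and -0.02, with 15 of 31 above 0 at 72 h (48.4%). Genes within a subgroup differed: at 72 h the median was 0.54 for ETS1, 0.35 for ETS2 and 0.16 for FLI1. It was -0.02 for EHF, -0.16 for ELF3 and 0.26 for ELF5, beside 0.15 over all shared regions. The 36 regions of the PEA3 group (0.05, -0.04 and -0.05) and the 19 of ELK3 (0.05, -0.07 and 0.09) also stayed close to 0. The share of regions with a peak at 72 h that were gained was 34.3% for ETS1, ETS2 and FLI1, 22.5% for the epithelium-specific genes, 19.4% for the PEA3 group and 11.1% for ELK3, beside 30.1% of all regions. Regions of 1 gene share a chromosomal neighbourhood and are not replicates, so these differences between subgroups were not tested.

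ETS1, the founding member of the family and an activator of protease and migration genes, lies on chr11:128458761-128587558, minus strand, with 28 regions. ETS1 region 6, in an intron 119.9 kb downstream of the canonical TSS (chr11:128467421-128468103), had an AUC of 255 with solvent and of 1503, 2583 and 2845 after 6, 24 and 72 h. It was thus a peak near the limit of listing in solvent and among the stronger ETS1 regions after treatment, the solvent list being the lowest of the 4. The ratios were 2.11, 2.96 and 3.23, a 9.38-fold difference at 72 h, and 24 of 79658 shared regions (0.0301%) had a ratio as large. The solvent peak covered 350 bp and its summit lay 214 bp from the summit at 72 h, whereas the summits at 6, 24 and 72 h lay within 12 bp of each other and the 72 h peak covered 656 bp. Of the printed window, with its AP-1 match TGACTCA, the solvent peak covered 155 bp and each TGFβ1 peak all of it. Per base covered, the ratio at 72 h was 2.39.

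A further 2 ETS1 regions were called higher at 72 h. Intronic ETS1 region 13, 85.4 kb downstream of the canonical TSS, had AUC values of 349, 854, 1064 and 1053 in solvent and at 6, 24 and 72 h, with ratios of 0.85, 1.23 and 1.35, the last of them 0.48 per base covered. Intergenic ETS1 region 2, beyond the 3′ end of the gene, had 362, 506, 941 and 908, with a ratio of 1.08 at 72 h, or 0.78 per base. As deposited, without scaling, all 3 TGFβ1 values exceeded the solvent value in each of these regions. After scaling, ETS1 region 2 was close to solvent at 6 h (ratio 0.04). ETS1 region 23 was called higher at 6 and 24 h only, with AUC values of 271, 738, 795 and 602 and ratios of 1.00, 1.17 and 0.90. The strongest ETS1 region gained in all TGFβ1 lists was weak (region 18, 395, 362 and 534). The lowest ratio at 72 h was -0.28, at intronic region 21 (346, 496, 532 and 339), and among ETS1 regions with an AUC of at least 500 in solvent or at 72 h it was -0.17, at region 28 (475, 509, 535 and 503). ETS1 region 9, shown above as the strongest lost region, had 244, 224 and 367 before it was without a peak at 72 h. In all, 17 of 20 shared ETS1 regions had a ratio above 0 at 72 h, with a median of 0.54. Over all shared regions 63.9% lay above 0 at 72 h and the median was 0.15.

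ETS2, the closest paralogue of ETS1 and a nuclear target of ERK signalling, lies on chr21:38805183-38824955, plus strand, and also had 28 regions. Its strongest gain in all TGFβ1 lists was ETS2 region 13 at chr21:38801332-38801796, 4.25 kb upstream of the canonical TSS, with no peak in solvent and AUC values of 642, 920 and 1074 at 6, 24 and 72 h. Intergenic ETS2 region 2, 49.0 kb upstream, had 204, 290, 745 and 657. It was close to solvent at 6 h (ratio 0.07) and higher at 24 and 72 h (1.49 and 1.44), and 0.90 per base at 72 h. ETS2 region 1, 50.1 kb upstream and next to it, had 1405, 1668, 1602 and 1321, with the lowest ratio at 72 h (-0.34) among ETS2 regions with an AUC of at least 500 in solvent or at 72 h. The lowest of all shared ETS2 regions was region 25, 41.8 kb downstream of the TSS, with 364, 684, 473 and 277 and ratios of 0.47, 0.00 and -0.64. Ratios of both signs were thus found around ETS2. Of 25 regions with a peak at 72 h, 9 were gained, and 12 of 16 shared regions had a ratio above 0. In the whole data set 30.1% of regions with a peak at 72 h were gained and 63.9% of shared regions lay above 0.

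FLI1, of the ERG subfamily and known from blood and endothelial cells and as a fusion partner in Ewing sarcoma, lies on chr11:128686535-128813267, plus strand, next to ETS1 on the same chromosome. No region was shared between the windows of ETS1 and FLI1. Of its 16 regions, 8 had a peak in solvent and 15 at 72 h, 7 of them gained. In the whole data set 30.1% of regions with a peak at 72 h were gained. The strongest gain was FLI1 region 12 at chr11:128796299-128796690, in an intron 102.4 kb downstream of the canonical TSS, with no peak in solvent and AUC values of 400, 1059 and 1026 at 6, 24 and 72 h. Its nearest protein-coding TSS was that of KCNJ1, a potassium channel gene, so its position alone does not assign it to FLI1. Intronic FLI1 region 10 had 283, 357, 376 and 614, a ratio of 0.87 that appeared at 72 h, below the 2-fold limit. FLI1 region 7 had 1398, 1373, 1206 and 1561, with ratios of -0.47, -0.59 and -0.09, so that its scaled AUC was lower at 6 and 24 h and near solvent at 72 h. FLI1 had no shared region that was called higher or lower.

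**Figure D2:**
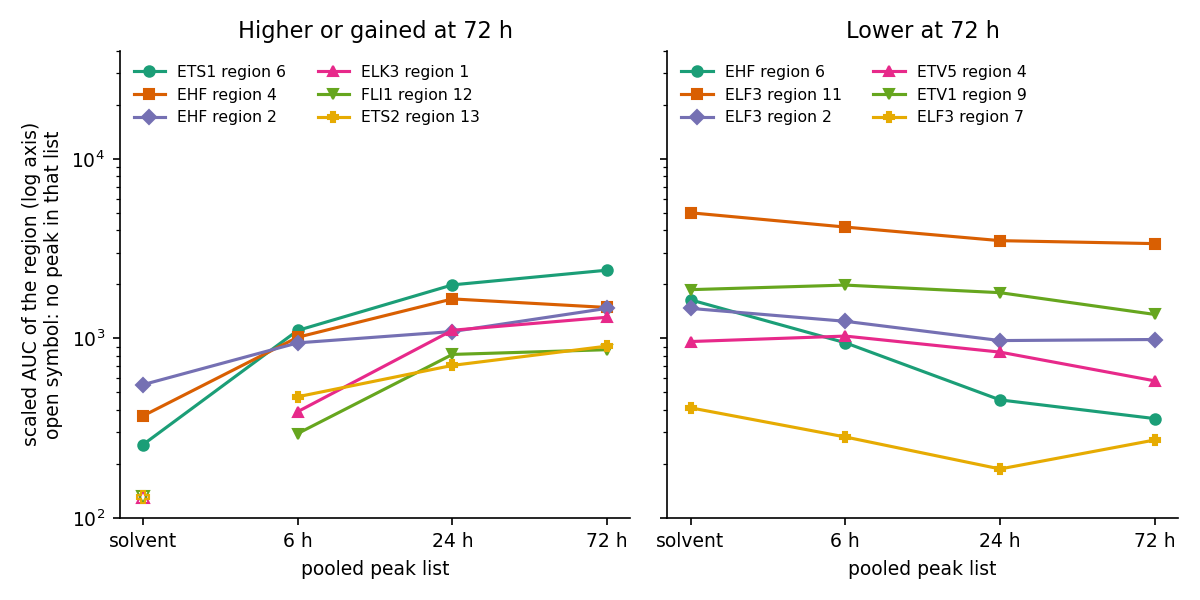
Scaled AUC (logarithmic axis) of 6 regions called higher or gained at 72 h (left) and 6 with a ratio below 0 at 72 h (right), in solvent and at 6, 24 and 72 h. Of those on the right only EHF region 6 reached the 2-fold limit at 72 h. Open symbols mark regions with no peak in that list and are placed at an arbitrary height. ETS1 region 6 goes from the lowest of the 3 solvent values on the left to the highest at 72 h, and EHF region 6 crosses from 1639 to below the ETV5 region on the right.

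The PEA3 group differed little. ETV1 lies on chr7:13891229-13991425, minus strand, and had 11 regions with ratios from -0.46 to 0.27 at 72 h. Its lowest ratio was at the canonical TSS itself, ETV1 region 9 (chr7:13988860-13990201), where the AUC was 1867, 2688, 2337 and 1612 and the ratio 0.08, -0.06 and -0.46. The AUC per base of this region gave a ratio of -0.10 at 72 h, since the covered length went from 1335 bp in solvent to 1092 bp. The highest, intergenic ETV1 region 1, had a ratio of 0.27 with AUC values of 2302, 3261, 3189 and 3287. A gained region 31.6 kb upstream (ETV1 region 11) had 518, 552 and 598.

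ETV4, on chr17:43527844-43579620, minus strand, held the largest difference of the PEA3 group. ETV4 region 10 (chr17:43578846-43580031) lies over the most upstream TSS of ETV4, 33.4 kb upstream of the canonical one, and also in an intron of the neighbouring gene DHX8, which encodes an RNA helicase. Its AUC was 1008, 2285, 3044 and 2880, with ratios of 0.74, 1.22 and 1.27, and the solvent value was the lowest of the 4. The covered length also increased, from 502 bp in solvent to 951, 1072 and 1032 bp, with 1 peak in solvent and 2 in each TGFβ1 list, and per base covered the ratio at 72 h was 0.30. Merging only peaks that shared at least 50 bp gave 1.00, just under the limit for a call. The region over the canonical TSS, ETV4 region 5, had 4891, 5939, 4938 and 4899 and ratios of -0.16, -0.37 and -0.24. After scaling, the ratios at these start sites of ETV4 thus had opposite signs. As deposited, region 5 was not below solvent in any TGFβ1 list, and its ratios did not reach the limit for a call. In an intron 10.1 kb upstream of the canonical TSS, ETV4 region 6 had 1024, 1443, 1154 and 837, a ratio of -0.54 at 72 h, and the gained ETV4 region 11 had 447, 649 and 569.

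ETV5, on chr3:186046314-186110318, minus strand, had 9 regions and none that was called higher, lower or lost at any time. Intronic ETV5 region 4, 11.1 kb downstream of the canonical TSS, had 960, 1398, 1090 and 688, with ratios of 0.10, -0.20 and -0.73, the lowest of the PEA3 group. Intergenic ETV5 region 1 had 717, 1045, 1265 and 1298, with ratios of 0.10, 0.44 and 0.61. Its nearest protein-coding TSS was that of TRA2B, so its position alone does not assign it to ETV5. ETV5 regions 4 and 1 diverged over time around a gene whose sum of all regions stayed level. The gained ETV5 region 9 was weak (331, 385 and 260) and lay in an intron of DGKG, a diacylglycerol kinase gene.

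ELK3, on chr12:96194375-96269824, plus strand, had 19 regions, among them the strongest gain of all 10 genes. ELK3 region 1 (chr12:96177011-96177411), intergenic and 17.1 kb upstream of the canonical TSS, had no peak in solvent and AUC values of 530, 1443 and 1555 at 6, 24 and 72 h. The summits in the 3 TGFβ1 lists lay within 11 bp of each other, and the printed window holds an AP-1 match 84 bp before the summit at 72 h. Intronic ELK3 region 13 had 252, 744, 985 and 870, with ratios of 1.12, 1.59 and 1.54. It was higher at all 3 times, but its covered length went from 224 to 498 bp and per base the ratio at 72 h was 0.46. Just inside the gene, ELK3 region 3 had 530, 778, 528 and 423 and a ratio of -0.57. The strongest region of the window in solvent, intronic ELK3 region 12, was close to solvent (4696, 6145, 5661 and 5462, ratio -0.03 at 72 h).

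EHF, a factor of epithelial differentiation, had the lowest ratio of the 10 genes and the largest ratio after ETS1 region 6. It lies on chr11:34621093-34663288, plus strand, with 17 regions. Intronic EHF region 6 (chr11:34640008-34640628), 19.3 kb downstream of the canonical TSS and 1757 bp from an alternative one, had an AUC of 1639 with solvent and of 1283, 591 and 424 after 6, 24 and 72 h. The value was lower at each later time, and the solvent value was the highest. The ratios were -0.79, -1.85 and -2.20, a scaled AUC 0.218 times that of solvent at 72 h, and 50 of 79658 shared regions (0.0628%) had a ratio as low. Per base covered the ratio at 72 h was -1.37, with 621 bp covered in solvent and 367 bp at 72 h. With lists of equal length the region had no peak at 72 h and was counted as lost. The printed window, with its ETS, RUNX and C/EBP matches, was covered by the peak in every list.

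The EHF regions that were called higher at 72 h both lay upstream of the TSS. Intergenic EHF region 4 (chr11:34609761-34610284), 11.1 kb upstream, had 370, 1377, 2157 and 1763, with ratios of 1.46, 2.17 and 2.01. EHF region 2, 21.5 kb upstream, had 552, 1281, 1420 and 1744, with ratios of 0.77, 0.98 and 1.41. In both regions every TGFβ1 value was more than 2 times the solvent value as deposited. After scaling, region 2 reached 2-fold only at 72 h. Per base covered, the ratios at 72 h were 1.44 and 1.06. EHF region 3, which lies between them, was not called and had 403, 714, 327 and 437, with ratios of 0.38, -0.68 and -0.13. Downstream of the TSS ratios were also of both signs, with 0.22 at region 8 and 0.50 at region 15 at 72 h, so upstream and downstream regions did not divide by direction. The strongest EHF region in solvent, intronic region 11, had 3548, 4110, 3786 and 3549 and a ratio of -0.25 at 72 h, and the gained intronic region 13 had 317, 459 and 589. Leaving out region 4 or region 6 moved the ratio of the summed EHF signal at 72 h from 0.18 to 0.06 or 0.34, so the sum held opposing parts.

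ELF3, a transactivator of epithelial genes, lies on chr1:202007945-202017183, plus strand, and had the highest summed AUC in solvent of the 10 genes. Several of its strong regions were somewhat lower with TGFβ1, and 11 of 16, 10 of 16 and 9 of 16 shared regions lay below 0 at 6, 24 and 72 h. Over all shared regions 59.1%, 62.5% and 63.9% lay above 0 at these times. Intergenic ELF3 region 11 (chr1:202018131-202019478), just past the 3′ end of the gene, had 5005, 5660, 4555 and 3999, with ratios of -0.26, -0.52 and -0.57. Intergenic ELF3 region 2, 37.8 kb upstream, had 1468, 1690, 1264 and 1169, with ratios of -0.24, -0.60 and -0.58. Its nearest protein-coding TSS, 9678 bp away, was that of RNPEP, an aminopeptidase gene, so its position alone does not assign it to ELF3. Neither region 11 nor region 2 reached the 2-fold limit. Per base covered the ratios at 72 h were -0.27 for region 11 and 0.35 for region 2, whose direction turned, with 740 bp covered in solvent and 409 bp at 72 h. The stronger intergenic ELF3 region 18 had 6985, 8280, 7680 and 7237, with ratios of -0.20, -0.24 and -0.20. ELF3 region 7, 145 bp from an alternative TSS, had 410, 383, 244 and 322 and was called lower at 24 h (-1.13) but not at 72 h (-0.60). In the opposite direction, intergenic ELF3 region 20, 54.2 kb downstream, had 253, 660, 569 and 683 and a ratio of 1.19 at 72 h, or 0.61 per base. The region of largest solvent AUC in the window, ELF3 region 3 (7273, 8792, 8362 and 7814, ratio -0.14), covers the TSS of RNPEP, and the gained ELF3 region 1 had 270, 332 and 440.

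ELF5, which directs alveolar differentiation of the mammary gland, lies on chr11:34478791-34525193, minus strand, and had 7 regions, the fewest. Its strongest region, ELF5 region 1 (4230, 5639, 5518 and 4648, ratio -0.11 at 72 h), covers the TSS of CAT, the catalase gene. Intronic ELF5 region 2 had 380, 721, 883 and 745, with ratios of 0.48, 0.84 and 0.72, and the gained region 5 had 308, 318 and 451. ELF5 region 7, which is also EHF region 1, had 1445, 1971, 1919 and 2054 and a ratio of 0.26 at 72 h. None of the ELF5 regions was called higher or lower.

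**Figure D3:**
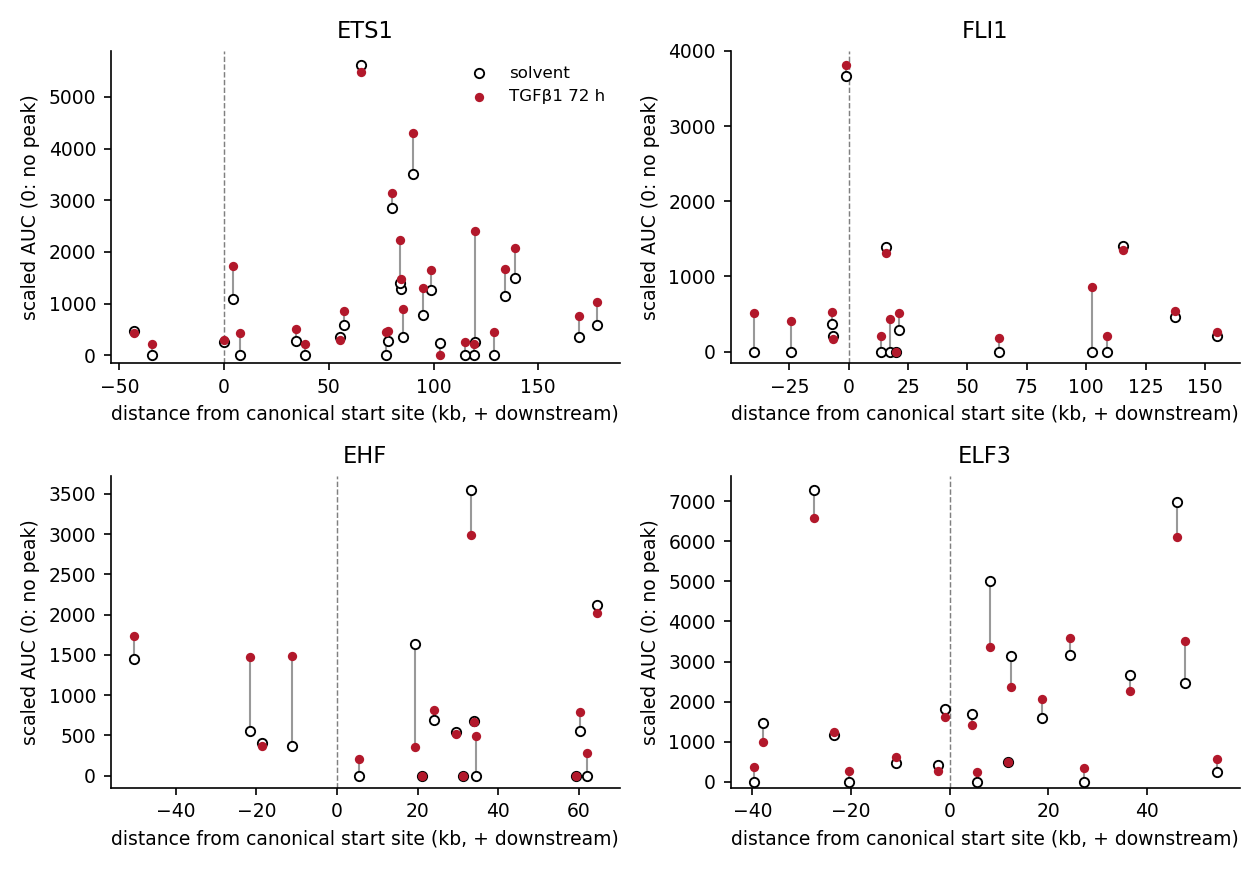
Scaled AUC of each region (vertical axis, 0 where the list had no peak) by distance from the canonical TSS in kb (horizontal axis), for ETS1, FLI1, EHF and ELF3; open circles are solvent and filled circles 72 h of TGFβ1. At ETS1 the filled point at 119.9 kb is region 6, at EHF the regions called higher are the upstream regions 2 and 4, at 21.5 and 11.1 kb from the TSS, and the region called lower is region 6 at 19.3 kb, and at ELF3 the largest difference is that of region 11 at 8.29 kb.

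The main promoter of each gene differed little from solvent. A promoter region was the strongest region within 1 kb of a protein-coding TSS of the gene, so weaker regions near a start site are not among them. Left out in this way were ETV4 region 10 (ratio 1.27 at 72 h), ELF3 region 7 (-0.60) and ELK3 region 3 (-0.57), among others. ETV1 region 9, which covers the canonical TSS of ETV1 (-0.46), was also left out. For 9 of the 10 genes the promoter region had a peak in solvent and at 72 h. Its ratios lay between -0.30 and 0.05 at 6 h, between -0.37 and 0.14 at 24 h and between -0.24 and 0.20 at 72 h, none of them a 1.5-fold difference. The promoters of ETS2 (region 14; 4328, 5938, 5402 and 4978), FLI1 (region 5; 3670, 5120, 4550 and 4523) and ETV5 (region 8; 5427, 7077, 6369 and 6245) were strong peaks in solvent already. Those of ETV1 (region 10; 3653, 4714, 4480 and 4007) and ELK3 (region 2; 2077, 2924, 2775 and 2837) were too. ELF3 (region 8; 1808, 1997, 1896 and 1911) and ELF5 (region 4; 532, 596, 763 and 703) had weaker ones. The ELF5 region lay 617 bp from the nearest protein-coding ELF5 TSS, and no region lay within 100 bp of such a TSS. The FLI1 promoter was thus accessible in these epithelial cells without added TGFβ1.

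At ETS1 the strong promoter region was an internal one, region 19 (chr11:128521703-128523062), with AUC values of 5614, 6916, 6657 and 6509 and a ratio of -0.03 at 72 h. At the canonical TSS the AUC was 252, 299, 340 and 351 (region 26), close to the limit for listing in all 4 lists. EHF had no region within 1 kb of its canonical TSS in any list. The only region near an alternative EHF TSS, region 7, had a peak at 6 h alone, with an AUC of 273. Proximal regions, those within 3 kb of any TSS, numbered 55 of 170 (32.4%, against 34.4% of all regions) and had a median ratio of -0.03 at 72 h, and the 115 distal regions had 0.26, beside 0 and 0.27 over all proximal and distal regions. The 0 for all proximal regions follows from the scaling, which was set on them.

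The AUC was also summed over all regions of each gene and a gene window was called up or down at a scaled log2 ratio of 0.5 or more in either direction. At 6 and 24 h 0 of the 10 genes were called up or down, where 5.65% and 12.7% of all protein-coding genes were up and 0.0585% and 0.0745% down. At 72 h ETS1 and FLI1 were up and 0 were down, where 14.1% of 18784 genes were up and 0.213% down. The summed AUC of ETS1 was 24428, 35713, 40622 and 41832 in the 4 lists, with ratios of 0.11, 0.35 and 0.53. That of FLI1 was 8004, 12229, 12919 and 13433, with 0.17, 0.31 and 0.50. For ETS2 it was 23733, 38446, 39470 and 37582, with 0.25, 0.35 and 0.42. These 3 genes had the highest ratios of the 10 at 24 and 72 h.

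Other windows also took such values: 13.05% of all genes had a ratio at 72 h at least as large as that of ETS1, 14.1% as that of FLI1 and 18.04% as that of ETS2. Both calls were close to the limit. With ratios set to the median of all shared regions they became 0.38 for ETS1 and 0.36 for FLI1, and per base covered 0.083 and -0.030, the FLI1 value having changed sign, since the covered length went from 9185 to 13145 bp at ETS1 and from 3739 to 5670 bp at FLI1. Without region 6 the ETS1 ratio was 0.44, and without the gained region 12, whose removal lowered it most, that of FLI1 was 0.39.

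The remaining genes had lower ratios. At 72 h they were 0.26 for ETV4, 0.22 for ELF5, 0.18 for ELK3, 0.18 for EHF, 0.05 for ETV1, -0.01 for ETV5 and -0.07 for ELF3, beside a median of 0.11 over all genes. ELF3 was below 0 at all times (-0.10, -0.12 and -0.07), with summed AUC values of 40085, 50933, 47922 and 45435, and 84.0% of genes had a ratio at least as large at 72 h. Without ELF5 region 1, at the CAT promoter, the ratio of ELF5 was 0.60. The order from ETS1, FLI1 and ETS2 down to ELF3 has no replicate error, and neighbours such as ELK3 and EHF cannot be told apart.

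**Figure D4:**
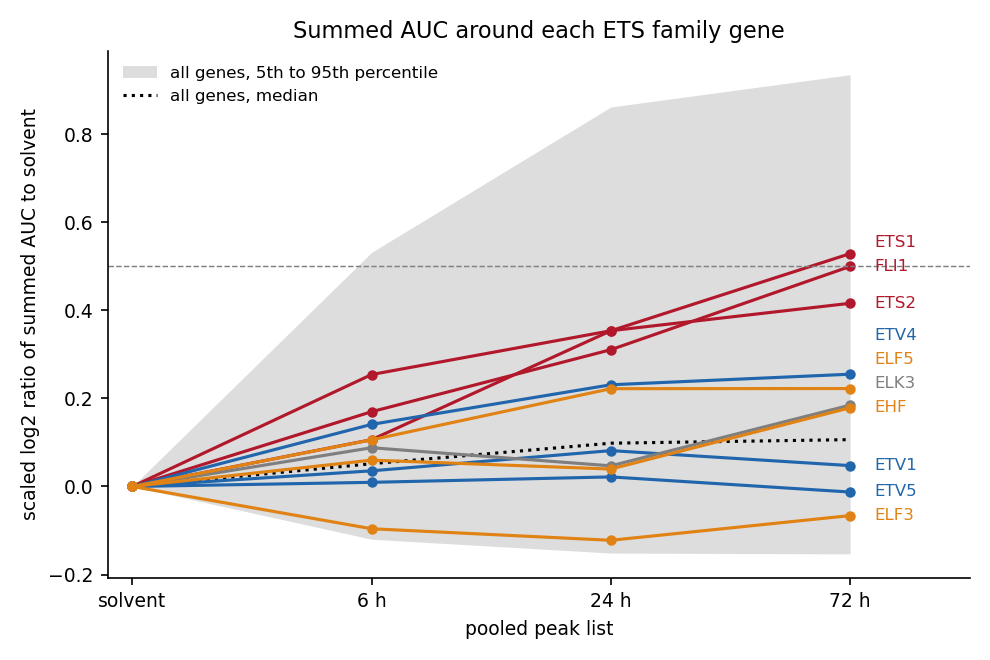
Scaled log2 ratio of the summed AUC around each gene to solvent (vertical axis) in the 4 lists; the shaded band spans the 5th to 95th percentile of all protein-coding genes, the dotted line is their median and the dashed line marks the limit of 0.5. ETS1, FLI1 and ETS2 end highest, at 0.53, 0.50 and 0.42, and all 10 genes end within the band.

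Of the 18 other ETS family genes, 1, 2 and 3 were up at 6, 24 and 72 h and 0 were down at any time, with a median ratio of 0.02 at 72 h. Over all genes 5.65%, 12.7% and 14.1% were up, so the counts lay near this background. ERG, the closest relative of FLI1, had summed AUC values of 13326, 25657, 29114 and 27140 and ratios of 0.50, 0.75 and 0.78. ETV6, a repressor of the family, had 17542, 31016, 32419 and 32682 and ratios of 0.38, 0.51 and 0.65. SPDEF, a factor of secretory epithelium, had 2007, 3309, 3270 and 3652 and a ratio of 0.62 at 72 h. The promoter of ETV6 had a peak in every list (3986, 5485, 4704 and 4558), whereas ERG and SPDEF had no promoter peak listed. None of the 18 genes shared a region with the 10 genes.

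Motifs were searched on both strands within 100 bp of the summit of each region's strongest peak, and no searched motif contains another, though matches can overlap at their ends. A match is a string of letters and not a binding site. The AP-1 motif (TGANTCA), which FOS and JUN proteins bind, was in 84 of 170 regions (49.4%, 95% Wilson interval 42.0 to 56.9), against 40.5% of all merged regions. The ETS motif (CNGGAAG), the site of the family's own products, was in 43 (25.3%, interval 19.4 to 32.3, against 20.0%). AP-1 was thus the most frequent motif around these genes, as it was over all regions.

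Regions were called opened when gained or at a ratio of 0.5 or more at 72 h, and closed when lost or at a ratio of -0.5 or less. Of the 70 opened regions 47 held the AP-1 motif (67.1%, interval 55.5 to 77.0, against 53.4% of all opened regions), and of the 10 closed regions 1 did (10.0%, against 15.0%). Of the 78 shared regions in neither class 34 held it (43.6%, against 32.7%). Regions with no peak in solvent and none at 72 h were left out of these classes. The ETS motif was in 14 opened regions (20.0%, against 17.8%) and in 5 of the 10 closed ones (interval 23.7 to 76.3%, against 19.6%), among them EHF region 6. With only 10 closed regions these shares are imprecise. The C/EBP motif (TTGCNNAA) was in 13 regions (7.65%, against 12.6%) and in 3 of the 10 closed ones (against 24.9%).

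Near the summit, the remaining motifs were in similar or smaller shares of these regions than of all regions. The E-box CACCTG, which SNAIL and ZEB proteins bind, was in 28 regions (16.5%, against 17.9%), the RUNX motif (TGTGGTT) in 9 (5.29%, against 6.48%) and the GRHL motif (AACNNGTT) in 3 (1.76%, against 3.07%). The palindromic SMAD motif (GTCTAGAC) was in 0 of 170 regions, a share of up to 2.21% by the Wilson interval, against 0.295% of all regions. By subgroup, the AP-1 motif was in 54.2% of the regions of ETS1, ETS2 and FLI1, 53.5% of those of the epithelium-specific genes, 42.1% of those of ELK3 and 38.9% of those of the PEA3 group, beside 40.5% of all regions, with no test between them.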

How the data were processed

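ATAC-seq libraries of MCF10A cells, 2 biological replicates for each of 4 conditions, were analysed from 4 peak lists in narrowPeak layout. Per the methods and the submitters' processing notes, the authors used Trimmomatic 0.38 for trimming, Bowtie2 2.4.5 for alignment (GRCh38) and Picard for duplicates, kept proper pairs outside the mitochondrial genome with SAMtools 1.4.1 and called peaks with Genrich 0.5 on both replicates together, without blacklisted regions. The deposited signal is the AUC of each peak, not scaled between lists. Each list was matched to its condition by its deposited name. The authors' csaw and edgeR tests on reads were not used here.

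Lists were merged (1 bp or more shared), scaled on regions within 3 kb of a GENCODE 44 TSS and assigned to gene bodies with 50 kb flanks. Each list is 1 pooled value, so differences are described, with no test. Named for each gene were the promoter, the region of largest solvent AUC, the shared regions of highest and lowest ratio at 72 h among those with an AUC of at least 500 in solvent or at 72 h, the strongest region gained in all TGFβ1 lists and those lost at 72 h. ETS1 regions 2, 13, 21, 23 and 26, ETS2 region 25, FLI1 regions 4 and 16, EHF regions 1, 2, 3, 8 and 15 and ELF3 regions 7, 11 and 18 were named after their values had been seen. The members and lists were chosen with earlier results of these data known. Motifs were searched with pysam 0.24.0. Other steps used Python 3.11.15 (scipy 1.17.1, pandas 2.3.3, numpy 2.4.6). Merging, scaling and calls were tested on simulated lists made from the real solvent peaks. These lists kept the solvent coordinates and added no peaks, so shifted, widened or gained peaks were not tested. Alternatives covered other list lengths, merging, scaling, flanks and thresholds.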

Additional observations from a re-analysis of the deposited data

How the results depend on the processing

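No paired analysis was possible because each deposited list pools both replicates, and for the same reason none was left out. Of 695 values recomputed under an alternative, 622 stayed on the same side of their limit or within the tolerance set for it. This count includes values that could not move, so it is no measure of robustness. Other flanks or the nearest TSS leave the ratio of a single region or promoter unchanged. Other scaling or values per base leave gained and lost counts unchanged. Only regions with a peak are listed, so a weak signal cannot be told from none.

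With a minimum AUC of 400, 0, 2 and 2 member regions were higher at 6, 24 and 72 h (all regions 1.64%, 4.31% and 6.03%). At 24 h 1 was lower (all regions 0.523%) and at 72 h 1 was lost (2.94%). With lists of equal length 12, 12 and 19 were gained (all regions 9.19%, 13.2% and 15.6%) and 8, 9 and 12 lost (5.96%, 10.8% and 13.5%). Lower were 1 and 0 at 24 and 72 h (all regions 0.425% and 0.559%), and the ratio at 72 h was 0.46 for ETS1 and 0.36 for FLI1. Without scaling 10, 19 and 15 were higher (all regions 12.6%, 18.9% and 16.8%) and 1 lower at 24 h (0.290%). The medians were then 0.49, 0.44 and 0.42 (all regions 0.51, 0.50 and 0.39), and ETS2 (0.66) and ETV4 (0.50) were up. Scaling over all shared regions gave medians of -0.0636 and 0.0303 at 24 and 72 h, with 0.38 for ETS1 and 0.36 for FLI1.

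Per base covered, 2, 4 and 3 regions were higher (all regions 0.840%, 2.51% and 3.11%). Lower were 1 at 6 and 1 at 24 h (all regions 0.512% and 0.484%). The median at 72 h was 0.0458 (all regions 0.0627), ETS1 had 0.0827, FLI1 -0.030 and 0 other family genes were up. With 20 kb flanks 1 region was lost at 24 h (all regions 1.86%), 5 were higher at 72 h (10.5%) and FLI1 had 0.44. With 100 kb flanks 1, 5 and 3 were lower (all regions 0.215%, 0.935% and 1.23%), 7 were lost at 72 h (3.44%) and FLI1 had 0.34. By nearest protein-coding TSS 64 and 62 were gained at 24 and 72 h (31.7% and 31.2%, against 30.2% and 30.1% of all regions). At 24 h 1 was lost (all regions 1.86%), at 72 h 4 were lower (1.23%), FLI1 had 0.45 and ELF5 0.60. A 1.5-fold limit gave 10, 22 and 25 higher and 2, 5 and 4 lower. Without the region of highest ratio, an alternative chosen after seeing the data, ETS1 had 0.44 and FLI1 0.48. In whole peaks 42.9% of regions held the ETS motif (all regions 36.5%) and 39.4% the E-box (35.5%). The C/EBP motif was in 21.8% (all regions 23.6%) and the RUNX motif in 10.0% (11.8%). The cause of these differences was not tested. Promoter ratios stayed under 1.5-fold in every alternative run.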
